A study of Homo sapiens with 6 samples.

Results

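The expression of 44 nucleolar ribosome biogenesis genes was examined in EJ cells, an established human bladder cancer line, after stable knockdown of STIL, a centriole protein. The genes were taken by symbol from a list of core pathway members, and all 44 were found among the 15953 genes measured. The comparison had 2 groups of 3 libraries of EJ cells: cells with the STIL knockdown lentivirus, termed shSTIL, and cells with its negative control lentivirus, termed shNC. The headings of the deposited columns read siNC and siSTIL instead, and the labels and the methods were followed here. The hairpin sequence of the lentivirus is not given in the sources used here, nor is it stated whether replicates are separate cultures, so the P-values measure only the spread between these libraries. The values are log2 CPM, that is counts scaled to a library total that the authors normalised with edgeR, on the log2 scale. The log2 change of a gene (its log2 fold change) is the shSTIL mean minus the shNC mean, given with its standard error (SE). CPM are shares of the mRNA pool, so fewer cells that express a gene and less RNA per cell cannot be told apart.

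Ribosomes are assembled in the nucleolus. RNA polymerase I transcribes one long precursor rRNA there, small nucleolar ribonucleoproteins (snoRNPs) guide its chemical modification, and large assemblies of processing factors fold and cut it into the rRNAs of the small and the large ribosomal subunit. Growing and tumour cells are known for enlarged nucleoli, and many genes of this pathway are textbook targets of the growth regulator MYC, which binds the E-box sequence CACGTG.

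Estimated reads over the 15953 genes, recovered from the log2 CPM, summed to 16214800 to 16901600 a library. STIL, the targeted gene, had log2 CPM of 5.98, 6.10 and 6.01 in the shNC libraries and 4.05, 4.06 and 4.01 in the shSTIL libraries, a log2 change of -1.99 (limma adjusted p = 6.1e-12, SE 0.052). Of the epithelial markers, KRT8 (log2 CPM 8.56 in shNC and 7.86 in shSTIL) and KRT18 (9.32 and 9.27) were abundant. KRT8 was called lower (log2 change -0.70, adjusted p = 1.1e-09), and KRT7 (6.37 to 6.59 in shNC and 6.96 to 7.02 in shSTIL) was called higher (0.49, adjusted p = 2.0e-06), whereas EPCAM was near 0.16 in both groups and CDH1 averaged -2.06 in shNC and -2.19 in shSTIL, at no more than 3 reads a library. Of 8 urothelial markers measured, 4 were under 1 CPM in each library, and PPARG was the most abundant, at a log2 CPM of 4.28 in shNC and 4.53 in shSTIL. PPARG was called higher (log2 change 0.26, limma adjusted p = 0.0046). UPK1B, at 5 to 20 reads a library, was called lower (-1.12, adjusted p = 0.0035). The other 6 were not called, and the median log2 change of the 8 was -0.27. The summed levels of other cell types were low and their ranges were 0.451 to 1.02 CPM over 2 leukocyte markers in shNC libraries and 0.668 to 0.857 CPM in shSTIL libraries, 1.11 to 1.46 and 1.06 to 1.24 CPM over 4 endothelial markers, and 2.88 to 4.36 and 2.18 to 2.46 CPM over 2 fibroblast markers.

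Most of the ribosome biogenesis genes that changed were higher in STIL-knockdown cells. At the 0.01 level of the adjusted p, limma called 28 of the 44 genes, 24 higher and 4 lower. Over all genes 47.1% were called, 23.5% higher and 23.6% lower. The members were all well expressed, with mean log2 CPM from 4.44 to 10.70, and of the 9943 genes averaging 3 log2 CPM or more, termed expressed genes here, 65.2% were called, 32.4% higher and 32.8% lower. The share of members called (63.6%) was close to that of expressed genes, and 54.5% of members were higher and 9.09% lower. The median log2 change of the members was 0.17, against 0.005 over all genes and -0.003 over expressed genes. With each library centred on its median, which moved the median of all genes to 0.048, 29 members were called higher and 1 lower. The same centring also raised the calls over all genes to 4222 higher (26.5%) against 3392 lower.

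The changes were small. The median of the 24 higher members was 0.38 and that of the 4 lower members was -0.18. Of the 44 members, 8 passed a limma test against a fold change of 1.2, all 8 higher. In either direction 20.8% of all genes and 28% of expressed genes passed, both larger shares than that of the members. Over all genes 9.77% passed as higher. For 36 members (81.8%) the shNC and shSTIL values had no overlap, close to the 77.6% of expressed genes and beside 60.3% of all genes. Of these members 30 were higher and 6 lower, a split that was not made over all genes. Between 33 and 35 of the 44 members lay above their shNC mean in each shSTIL library, and between 18 and 29 in each shNC library. The same count was not made over all genes, so it has no background beside it. The shNC counts are taken about the mean of those same libraries, which holds them near the middle by construction. Together the members took 0.585%, 0.612% and 0.602% of the reads of the shNC libraries and 0.678%, 0.685% and 0.677% of those of the shSTIL libraries. Every shSTIL library was thus above every shNC library. These shares are of the plain sum of reads, without the normalisation of the log2 CPM, so their scale differs from that of the log2 changes. With fewer libraries fewer members passed. The number called was 17 without shNC replicate 1 and 17 without shSTIL replicate 1, and 18 without shSTIL replicate 3. Over all genes 5614, 5203 and 4900 were called in these fits, against 7509 with all libraries. Without shSTIL replicate 1 the number called higher was 15, and over all genes 2543 (15.9%) were higher and 2660 lower in that fit. Over the 6 such fits 15% to 17.6% of all genes were called higher. Leaving out any library left 1 or 2 members called lower, beside 2500 to 2837 of all genes.

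**Figure D1:**
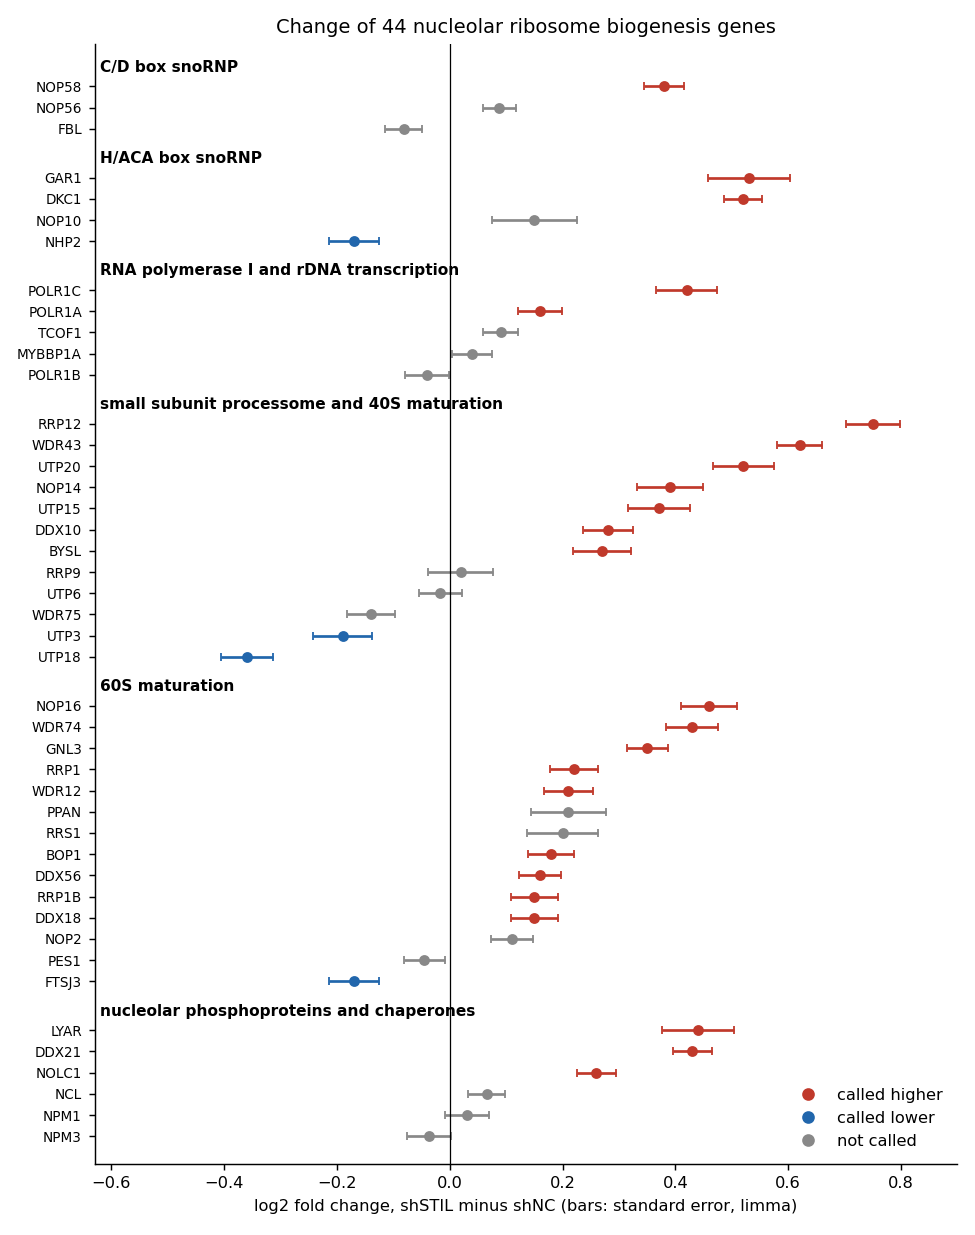
Log2 fold change (shSTIL minus shNC, x axis) of the 44 genes, ordered by role, with the standard error of the limma fit as bars and the call at an adjusted p under 0.01 as colour. The 24 genes called higher are spread over all 6 roles, from 0.15 to 0.75, and the 4 called lower are UTP18, UTP3, FTSJ3 and NHP2.

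The start regions of the genes were read for the E-box, since its sequence lies at many growth-related genes. RefSeq promoter sequences (GRCh38.p14, 250 bases before to 50 bases after a start site) were matched to 36 of the 44 members by symbol. BOP1, DDX18, NOLC1, NOP58, RRP12, RRP1B, RRS1 and TCOF1 were not matched. CACGTG, which reads alike on both strands, stood in at least one promoter of 15 of these 36 members (41.7%), against 1486 of 12621 measured genes with a promoter (11.8%). By promoter window, since some genes have several, the shares were 34.1% of 44 windows and 7.26% of all 35116. The windows of the members with the motif among those with the largest changes in either direction, and of one that hardly changed, are printed here 5′ to 3′ on the strand of the gene, with the E-box in capitals. UTP18 has 2 such sites.
WDR43 (chr2:28894658-28894687, plus strand): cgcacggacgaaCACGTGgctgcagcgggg
UTP20 (chr12:101280083-101280112, plus strand): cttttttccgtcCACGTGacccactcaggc
GAR1 (chr4:109815781-109815810, plus strand): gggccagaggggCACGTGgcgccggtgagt
UTP18, first site (chr17:51260445-51260474, plus strand): gggagtgctggtCACGTGgcaagaggctgc
UTP18, second site (chr17:51260538-51260567, plus strand): gcagcgaggttcCACGTGagcgcctgcgtt
RRP9 (chr3:51941892-51941921, minus strand): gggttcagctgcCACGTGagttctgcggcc

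Members with the motif were found in each class of call. Of the 15 members with it, 8 were called higher (BYSL, DDX21, GAR1, GNL3, LYAR, NOP14, UTP20 and WDR43), 1 was called lower (UTP18) and 6 were not called (FBL, MYBBP1A, NOP10, NOP2, PES1 and RRP9). Of the 21 matched members without it, 10 were called higher, 3 lower and 8 not. Among expressed genes, 34.5% of those with the motif and 32% of those without it were called higher. These matches describe letters in a window and were not tested as binding sites.

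RRP12 and WDR43, the members with the largest rises, belong to the group of small subunit processome and small subunit maturation factors, and the processome is the assembly that cleaves the precursor toward the small subunit rRNA. Of the 12 members of this group, 7 were called higher and 2 lower, with a median log2 change of 0.28. Among expressed genes 32.4% were called higher and 32.8% lower, and the difference was not tested. RRP12 (chromosome 10, 97356358 to 97426076 of GRCh38, minus strand), a factor of small subunit maturation and export, had log2 CPM of 6.06, 5.93 and 6.03 in shNC and 6.85, 6.75 and 6.68 in shSTIL. Its log2 change of 0.75 (limma adjusted p = 2.1e-08, SE 0.048) was the highest of the 44. Each shSTIL library was above each shNC library, as in each of the 24 members called higher. An antisense transcript shares 5.72% of the exonic bases of RRP12.

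WDR43 (chromosome 2, 28894643 to 28948222, plus strand) belongs to the UtpA subcomplex, which binds the nascent precursor rRNA. Its log2 CPM was 6.36, 6.43 and 6.49 in shNC and 7.10, 7.02 and 7.03 in shSTIL, a log2 change of 0.62 (limma adjusted p = 2.4e-08, SE 0.040). The groups were well apart, and the lowest shSTIL library stood above the highest shNC library by more than the range within either group. UTP15, another UtpA subunit, had 4.76, 4.87 and 4.83 in shNC and 5.23, 5.22 and 5.13 in shSTIL, a log2 change of 0.37 (adjusted p = 5.5e-05, SE 0.055). The log2 ratio of UTP15 to WDR43 within a library was -1.66 to -1.55 in shNC and -1.90 to -1.80 in shSTIL, a change of -0.25 (exact two-sided permutation test, p = 0.1, adjusted p = 0.143 over 10 gene pairs), where 0.1 is the smallest p that 3 libraries against 3 allow. The third UtpA member of the list, WDR75, had a log2 change of -0.14 (adjusted p = 0.0127) and was not called.

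UTP20 (chromosome 12, 101280109 to 101386616, plus strand), a large scaffold protein of the processome, had log2 CPM of 5.38, 5.42 and 5.39 in shNC and 6.05, 5.85 and 5.85 in shSTIL. Its log2 change was 0.52 (limma adjusted p = 2.1e-06, SE 0.054), and shSTIL replicate 1 was the highest library. NOP14, DDX10, a DEAD-box RNA helicase, and BYSL, a factor of late small subunit maturation, also rose, with log2 changes of 0.39, 0.28 and 0.27. NOP14 kept its call in 3 of the 6 fits that leave out a library and BYSL in 1, whereas DDX10 kept it in 6. An antisense gene shares 12.9% of the exonic bases of NOP14.

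UTP18 (chromosome 17, 51260528 to 51297936, plus strand), a subunit of the UtpB subcomplex, moved the other way. Its log2 CPM was 5.87, 5.94 and 5.85 in shNC and 5.47, 5.57 and 5.52 in shSTIL, a log2 change of -0.36 (limma adjusted p = 1.3e-05, SE 0.046). All shSTIL libraries were lower, and it was the only lower member that kept its call in each of the 6 fits without a library. UTP3 (chromosome 4, 70688479 to 70690551, plus strand), another processome factor, had 5.12, 5.17 and 5.06 in shNC and 4.95, 4.94 and 4.89 in shSTIL. Its log2 change of -0.19 (adjusted p = 0.00752, SE 0.052) was called in 1 of these fits and was not called under median centring (-0.14, adjusted p = 0.0307).

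UTP6 and RRP9 were among the 3 members with the smallest changes. UTP6, a UtpB subunit like UTP18, had log2 CPM of 5.85, 5.84 and 5.85 in shNC and 5.82, 5.86 and 5.83 in shSTIL, a log2 change of -0.017 (limma adjusted p = 0.725, SE 0.038). RRP9, a protein specific to the U3 snoRNP, had 4.80, 4.76 and 4.79 in shNC and 4.72, 4.83 and 4.85 in shSTIL, a log2 change of 0.019 (adjusted p = 0.796, SE 0.057). Neither gene separated shNC from shSTIL.

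**Figure D2:**
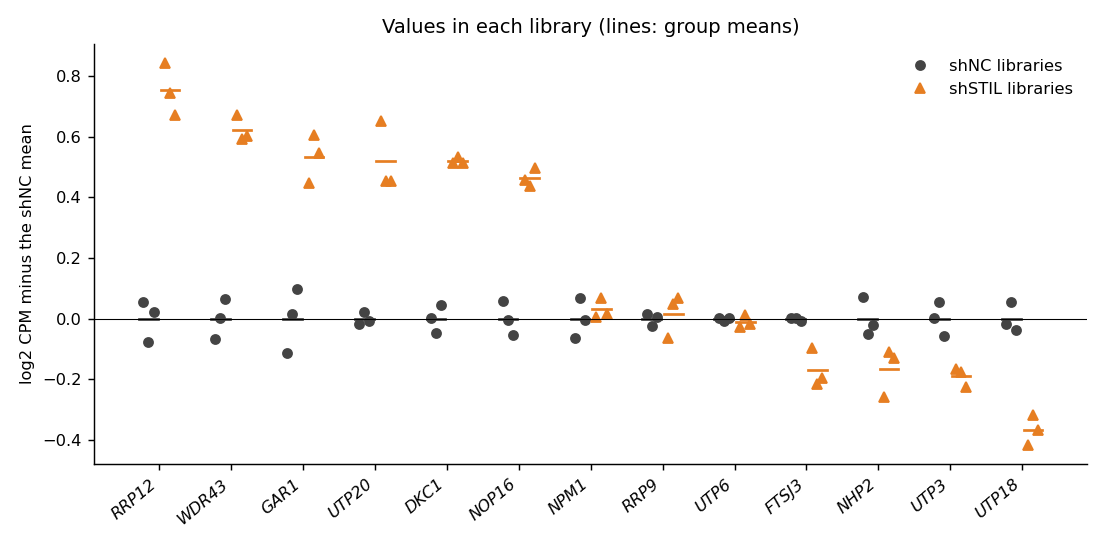
Log2 CPM of each library minus the mean of the shNC libraries (y axis) for the 6 largest rises, the 3 smallest changes and the 4 falls among the 44 genes, with lines at the group means. The shSTIL libraries of RRP12 to NOP16 lie above all shNC libraries, those of NPM1, RRP9 and UTP6 overlap with them, and those of FTSJ3, NHP2, UTP3 and UTP18 lie below.

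The snoRNPs modify the precursor rRNA, and the calls of their core proteins differed. The H/ACA box snoRNP, which converts uridine to pseudouridine, has a core of DKC1, NHP2, GAR1 and NOP10. DKC1 (chromosome X, 154762742 to 154777689, plus strand), the pseudouridine synthase dyskerin, had log2 CPM of 6.82, 6.77 and 6.86 in shNC and 7.33, 7.35 and 7.33 in shSTIL, a log2 change of 0.52 (limma adjusted p = 2.6e-08, SE 0.034). GAR1 (chromosome 4, 109815510 to 109824740, plus strand) had 4.06, 4.19 and 4.27 in shNC and 4.62, 4.78 and 4.72 in shSTIL, a log2 change of 0.53 (adjusted p = 2.9e-05, SE 0.073). GAR1 had 265 to 471 reads a library, and its mean log2 CPM of 4.44 was the lowest of the 44. Every shSTIL library was above every shNC library for both genes.

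NHP2 and NOP10 differed from these. NHP2 (chromosome 5, 178149460 to 178153967, minus strand), an RNA-binding core protein, had log2 CPM of 7.23, 7.11 and 7.14 in shNC and 6.90, 7.05 and 7.03 in shSTIL. Its log2 change of -0.17 (limma adjusted p = 0.0059, SE 0.045) was called in none of the 6 fits without a library. The neighbouring gene RMND5B lies on the opposite strand and shares 43.8% of the exonic bases of NHP2. RMND5B itself had a log2 change of 0.047 (adjusted p = 0.36). NOP10, the smallest core protein, had 6.09, 6.08 and 6.42 in shNC and 6.26, 6.39 and 6.40 in shSTIL. Its log2 change was 0.15 (adjusted p = 0.106), and shNC replicate 3 stood above the other 2 shNC libraries and at the level of shSTIL.

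Ratios within a library compare the H/ACA mRNAs with each other. The log2 ratio of DKC1 to NHP2 was -0.41 to -0.27 in shNC and 0.30 to 0.43 in shSTIL, a change of 0.68. The ratio of DKC1 to NOP10 was 0.45 to 0.73 in shNC and 0.92 to 1.07 in shSTIL, a change of 0.36. The ranges of the groups did not overlap for either ratio (exact two-sided permutation test, p = 0.1 for each, adjusted p = 0.143). Ratios of other gene pairs were not made, so this has no background. The values of 77.6% of expressed genes, taken singly, also did not overlap. For DKC1 and GAR1 the ratio was 2.58 to 2.76 in shNC and 2.56 to 2.71 in shSTIL, a change of -0.018 that lay within the spread of the libraries (exact permutation test, p = 0.7).

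The C/D box snoRNP, which adds methyl groups to ribose, has NOP56, NOP58 and the methyltransferase fibrillarin (FBL) among its core proteins. NOP58 had log2 CPM of 6.56, 6.57 and 6.62 in shNC and 6.95, 7.01 and 6.94 in shSTIL, a log2 change of 0.38 (limma adjusted p = 6.8e-07, SE 0.035). Its paralog NOP56 had 7.62, 7.58 and 7.64 in shNC and 7.70, 7.71 and 7.71 in shSTIL, a log2 change of 0.088 (adjusted p = 0.0242, SE 0.030). The groups did not overlap for either gene, but NOP56 did not pass the threshold. The log2 ratio of NOP56 to NOP58 was 1.02 to 1.07 in shNC and 0.70 to 0.77 in shSTIL, a change of -0.30 (exact two-sided permutation test, p = 0.1, adjusted p = 0.143). FBL had a log2 change of -0.082 (adjusted p = 0.0495), with 8.15, 8.15 and 8.19 in shNC and 8.02, 8.12 and 8.10 in shSTIL.

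**Figure D3:**
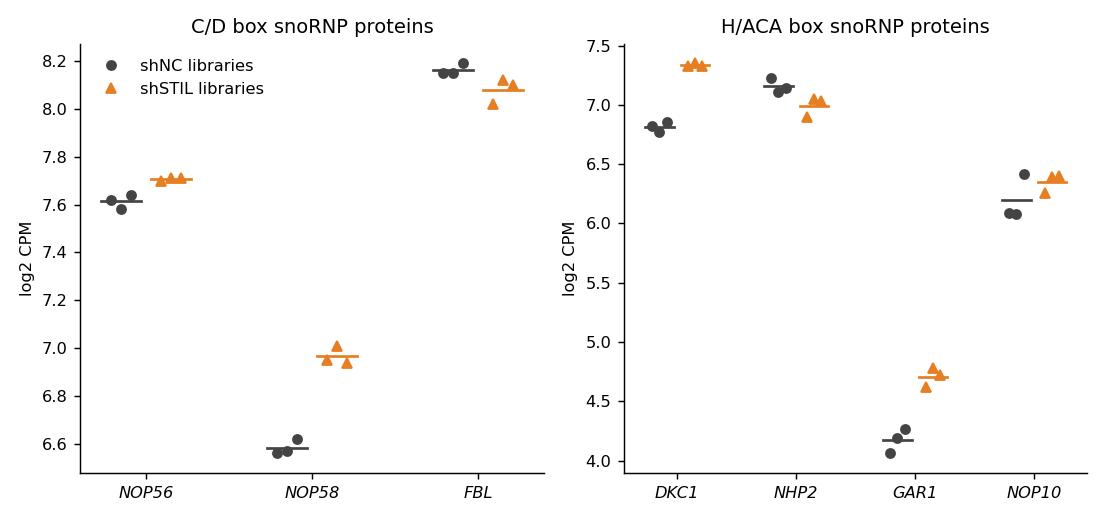
Log2 CPM (y axis) of the core proteins of the C/D box (left) and H/ACA box (right) snoRNPs in each library, with lines at the group means. NOP56, NOP58, DKC1 and GAR1 lie higher in all shSTIL libraries, whereas NHP2 and FBL lie lower and NOP10 overlaps.

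Several members carry snoRNA genes, and a guide RNA of this kind is cut from the transcript of its host. GENCODE 29 (GRCh38) places 24 snoRNA genes inside 7 of the 44 members on the same strand, 21 of them with a SNORD or SNORA symbol. The hosts WDR43 (SNORD92, SNORD53 and SNORD53B), DKC1 (SNORA36A and SNORA56), NOP58 and GNL3 were called higher, and NOP56, NCL and PPAN were not called. SNORA56 covers 4.19% of the exonic bases of DKC1. The snoRNAs were not analysed here.

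The large subunit group held 14 members, of which 9 were called higher and 1 lower, with a median log2 change of 0.19. Beside these stand 32.4% of expressed genes called higher and 32.8% called lower, and the difference was not tested. NOP16 (chromosome 5, 176383938 to 176388975, minus strand) had log2 CPM of 4.95, 4.89 and 4.84 in shNC and 5.35, 5.33 and 5.39 in shSTIL, a log2 change of 0.46 (limma adjusted p = 3.4e-06, SE 0.050). Its highest shNC library stood well below its lowest shSTIL library. HIGD2A, on the opposite strand, shares 12.3% of the exonic bases of NOP16 and had a log2 change of 0.074 (adjusted p = 0.147). WDR74, an assembly factor of the large subunit, rose by 0.43, and GNL3, the GTP-binding protein nucleostemin, by 0.35. WDR74 shares 9.36% of its exonic bases with the spliceosomal RNA gene RNU2-2P and 9.95% with an antisense transcript.

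BOP1, PES1 and WDR12 form the PeBoW complex, which is required for the maturation of the large subunit rRNA. BOP1 had log2 CPM of 6.32, 6.26 and 6.25 in shNC and 6.40, 6.44 and 6.51 in shSTIL, a log2 change of 0.18 (limma adjusted p = 0.00211, SE 0.041). WDR12 had 5.78, 5.88 and 5.80 in shNC and 6.05, 6.06 and 5.98 in shSTIL, a log2 change of 0.21 (adjusted p = 7.9e-04, SE 0.043). PES1 had 6.81, 6.72 and 6.79 in shNC and 6.76, 6.70 and 6.72 in shSTIL, a log2 change of -0.045 (adjusted p = 0.325, SE 0.036). The shSTIL values of PES1 overlapped with those of shNC, whereas those of its partners did not. The log2 ratio changed by -0.22 for PES1 to BOP1 and by -0.26 for PES1 to WDR12 (exact two-sided permutation test, p = 0.1 for each, adjusted p = 0.143). The groups did not overlap for either ratio, again without a background of other gene pairs. BOP1 kept its call in 0 and WDR12 in 2 of the 6 fits without a library. PES1 shares 8.36% of its exonic bases with TCN2 on the opposite strand, whose log2 change was -1.82 at 15 to 67 reads a library.

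The paralogs RRP1 and RRP1B, which act in large subunit processing, were both called higher. RRP1 had log2 CPM of 5.55, 5.51 and 5.54 in shNC and 5.72, 5.77 and 5.77 in shSTIL, a log2 change of 0.22 (limma adjusted p = 5.0e-04, SE 0.042). RRP1B had 6.31, 6.36 and 6.24 in shNC and 6.43, 6.43 and 6.49 in shSTIL, a log2 change of 0.15 (adjusted p = 0.00738, SE 0.041). Their log2 ratio was -0.86 to -0.69 in shNC and -0.72 to -0.67 in shSTIL, which overlap, a change of 0.072 (exact permutation test, p = 0.3). RRP1 was called in each of the 6 fits without a library and RRP1B in none.

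The helicases DDX56 and DDX18 rose by 0.16 and 0.15, and kept their call in 0 and 1 of the 6 fits without a library. The rRNA methyltransferase NOP2 (log2 change 0.11, limma adjusted p = 0.0185), RRS1 (0.20, 0.0161) and PPAN (0.21, 0.0154) were not called, although each was higher in all shSTIL libraries. AC006064.6, on the same strand, shares 70.9% of the exonic bases of NOP2, and AC009879.2 shares 11.4% of those of RRS1. PPAN shares 83.2% of its exonic bases with the readthrough gene PPAN-P2RY11, which rose by 0.80 (adjusted p = 3.4e-07), so the division of reads between both genes is uncertain. FTSJ3 (chromosome 17, 63819433 to 63830012, minus strand), another rRNA methyltransferase, was the lower member of this group. Its log2 CPM was 5.74, 5.74 and 5.73 in shNC and 5.64, 5.52 and 5.54 in shSTIL, a log2 change of -0.17 (adjusted p = 0.00527, SE 0.044) that was called in 1 of the 6 fits without a library. PSMC5, on the opposite strand, shares 9.33% of the exonic bases of FTSJ3 and also fell (log2 change -0.20, adjusted p = 3.2e-04). The part of these shared bases in the result was not tested.

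Of 5 members that act in rDNA transcription, 2 were called higher, beside 32.4% of expressed genes, and the difference was not tested. POLR1C, a subunit that RNA polymerases I and III share, rose by 0.42 (SE 0.054, limma adjusted p = 1.8e-05), and 4 opposite-strand genes share 1.13% to 4.35% of its exonic bases each. POLR1A and POLR1B are the catalytic subunits of RNA polymerase I. POLR1A had log2 CPM of 6.60, 6.54 and 6.59 in shNC and 6.79, 6.67 and 6.73 in shSTIL, a log2 change of 0.16 (adjusted p = 0.00347, SE 0.039). POLR1B had 6.17, 6.22 and 6.21 in shNC and 6.17, 6.11 and 6.19 in shSTIL, a log2 change of -0.041 (adjusted p = 0.401, SE 0.039). POLR1A was higher in every shSTIL library, and POLR1B overlapped. Their log2 ratio was 0.32 to 0.43 in shNC and 0.54 to 0.61 in shSTIL (exact two-sided permutation test, p = 0.1, adjusted p = 0.143). The call of POLR1A was kept in 1 of the 6 fits without a library. TCOF1, which encodes the nucleolar scaffold treacle, and MYBBP1A had log2 changes of 0.090 (adjusted p = 0.0233) and 0.039 (0.374).

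Of 6 nucleolar phosphoproteins, chaperones and related factors, 3 were called higher and 0 lower. Among expressed genes the shares were 32.4% higher and 32.8% lower, and the difference was not tested. Nucleophosmin (NPM1) had log2 CPM of 10.62, 10.75 and 10.68 in shNC and 10.69, 10.75 and 10.70 in shSTIL, a log2 change of 0.031 (limma adjusted p = 0.541, SE 0.039). NPM3, its relative, had 6.23, 6.17 and 6.21 in shNC and 6.12, 6.19 and 6.18 in shSTIL, a log2 change of -0.037 (adjusted p = 0.453, SE 0.039). The groups overlapped for both, and so did the log2 ratio of NPM1 to NPM3 (4.39 to 4.58 in shNC and 4.52 to 4.57 in shSTIL, exact permutation test, p = 0.4). Nucleolin (NCL) had a log2 change of 0.065 (adjusted p = 0.113). In the same list DDX21, an RNA helicase that acts in rRNA transcription and processing, rose by 0.43 (SE 0.035, adjusted p = 1.9e-07), the zinc finger protein LYAR by 0.44 (SE 0.063, adjusted p = 3.8e-05) and NOLC1, a scaffold that binds snoRNPs, by 0.26 (SE 0.035, adjusted p = 2.3e-05). DDX21 and NOLC1 kept their call in each of the 6 fits without a library, and LYAR in 5.

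Levels were compared between genes per transcript length. Mean CPM per kilobase of transcript over the 6 libraries was 946 for NPM1, 241 for FBL, 199 for NCL, 156 for NHP2 and 140 for NOP10, the 5 highest of the 44. It was 5.69 for UTP20, 7.52 for WDR12, 7.91 for POLR1A and 8.81 for UTP15, the 4 lowest. These levels rest on 1 principal transcript per gene in GENCODE 29 and move with that choice.

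Other genes of the pathway were read beside the 32.4% of expressed genes called higher and the 32.8% called lower. Of 47 other small subunit processome and small subunit maturation genes, 21 were called higher (44.7%) and 8 lower (17%, median log2 change 0.11). The largest rises were those of PNO1 (0.90, limma adjusted p = 6.3e-08) and the kinase RIOK1 (0.81, adjusted p = 3.4e-09), which act late in small subunit maturation. The largest falls were those of UTP11 (-0.44) and the helicase DDX47 (-0.35). Of 49 other large subunit maturation genes, 24 were called higher (49%) and 10 lower (20.4%, median 0.14), with PAK1IP1 (0.93) and SBDS (0.91), which acts in the release of a factor from the late large subunit, at one end and LAS1L (-0.51), a subunit of a precursor rRNA endonuclease, and SPATA5 (-0.49) at the other.

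Of 12 other RNA polymerase I genes, 5 were called higher and 2 lower (median 0.14). TAF1D, a subunit of the promoter selectivity factor, rose by 1.14 (limma adjusted p = 3.5e-10) and POLR1D by 0.55, and the termination factor TTF1 fell by 0.55 and POLR1G by 0.48. The genes that assemble snoRNPs differed in direction, with 1 of 10 called higher (ZNHIT6, 0.47) and 3 lower, among them PIH1D1 (-0.53) and ZNHIT3 (-0.47). Of 22 genes of the RNA exosome and RNase MRP, which trim and cut precursor rRNA, 2 were called higher (RPP14 at 0.61 and EXOSC1 at 0.23) and 8 lower (median -0.13). The lower share of 36.4% was near that of expressed genes, and the higher share was 9.09%. The largest falls among the expressed genes of this list were those of POP1 (-1.10, adjusted p = 3.0e-07) and EXOSC2 (-0.58). These shares are descriptions, and the difference between lists was not tested. The 14 noncoding snoRNA host genes listed were not analysed here.

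**Figure D4:**
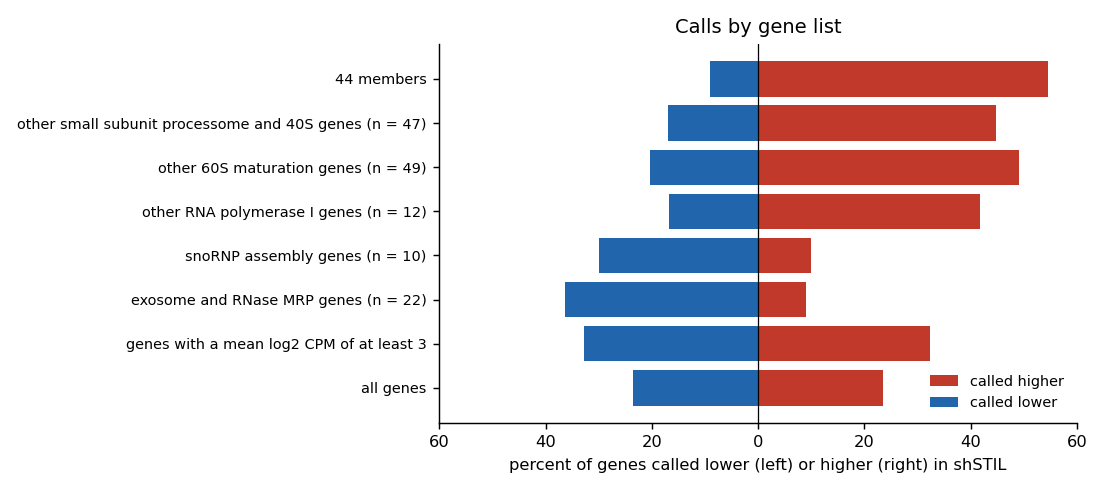
Percent of genes called higher (right, red) or lower (left, blue) in shSTIL at an adjusted p under 0.01, for the 44 members, for 5 lists of other genes of the pathway and for the genes measured. The members have 54.5% higher and 9.09% lower, and the exosome and RNase MRP genes have 9.09% higher and 36.4% lower.

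**Figure D5:**
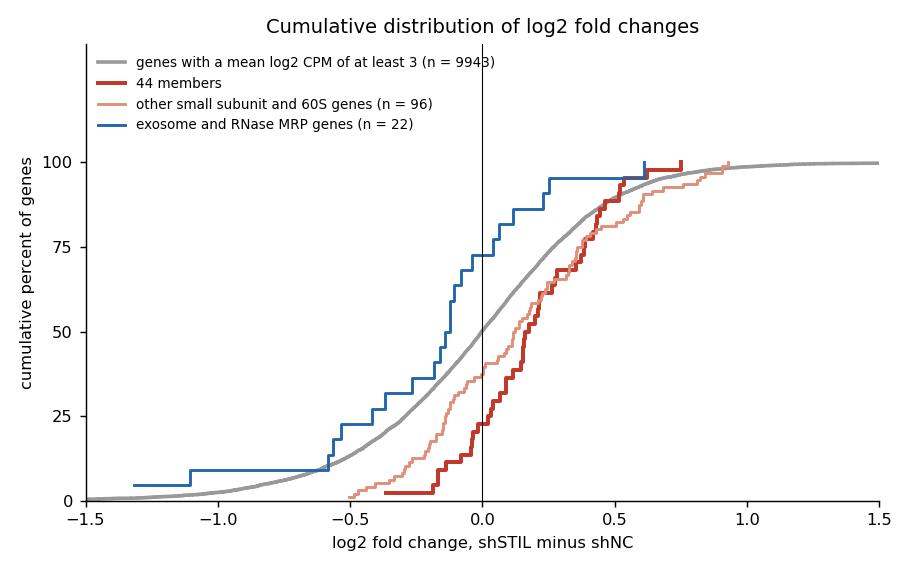
Cumulative percent of genes (y axis) by log2 change (x axis, shSTIL minus shNC, cut at -1.5 and 1.5). The curve of the 44 members runs to the right of that of the expressed genes over most of its range, with medians of 0.17 and -0.003, and the curve of the exosome and RNase MRP genes runs to the left, with a median of -0.13.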

How the data were processed

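RNA-seq libraries of EJ cells (3 shNC and 3 shSTIL, grouped by the sample labels) were analysed. The authors sequenced on BGISEQ-500, filtered with SOAPnuke, aligned to a transcriptome using Bowtie2 and obtained reads per gene from RSEM. The submitters' processing notes name hg38. Tool versions are not given in the sources used here. The deposited log2 CPM tables, which the authors made with edgeR, cover 15953 genes in all 6 libraries. Deposited estimated counts (15957 genes) were read only for shNC replicate 1 and the 3 shSTIL libraries, so limma on log2 CPM was the main test. These counts entered no fit and served to check the recovered reads, which were within 0.0511 reads of them in those libraries. Reads behind the log2 CPM were recovered in all 6 libraries from the spacing of low values. They were rounded to whole numbers for edgeR 4.0.16 and DESeq2 1.42.0. Before rounding, between 87.4% and 87.8% of the recovered values of a library were whole within 0.01 reads. RSEM divides reads among similar transcripts, which leaves paralogs uncertain, and whether strand was used is not stated.

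Groups were compared over all genes with limma 3.58.1 (lmFit, eBayes with a mean-variance trend, R 4.3.3) and Benjamini-Hochberg adjustment, without a minimum level. Calls used an adjusted p under 0.01, as in the study. For 10 gene pairs, log2 ratios were tested by exact two-sided permutation (20 labellings). With a smallest possible p of 0.1, no pair could pass 0.01. The groups did not overlap in 7 of the 10 pairs, and no other gene pairs were read as a background. The scripts were tested on simulated data. Exon overlaps and lengths came from GENCODE 29. The members, roles and lists were chosen with earlier results of these data known, and the background of genes averaging 3 log2 CPM or more was added after seeing the data. Values of every library are given for the called falls (up to 10), the 6 largest called rises, the 3 smallest changes and the genes of described pairs, and at most 2 expressed genes in each direction are named per list of other genes. FBL was added after its values were seen. Replicates with the same number did not deviate together (correlations of 0.02, -0.03 and -0.02 across genes), so the reported fit has no replicate block, and a fit with one was an alternative. Library pairs of a group differed beyond sampling noise (chi-square of 1.69 to 3.49 per degree of freedom).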

Additional observations from a re-analysis of the deposited data

How the results depend on the processing

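The fall of STIL kept its direction and call in all 15 alternatives. Of 660 member results, 539 kept direction and call, 98 lost the call, 18 gained it and 5 turned sign. None of these 5 was of a called gene. Fits without the mean-variance trend, without low genes or with a replicate block reuse the reported log2 changes. So do the looser threshold of 0.05 and the test against a 1.2-fold change. No gene, STIL included, could turn sign in these alternatives. A called gene could not lose its call at 0.05, nor could an uncalled gene gain one in the 1.2-fold test. The tally is thus partly fixed in advance. Under median centring POLR1B became 0.001, UTP6 0.026 and NPM3 0.006. Leaving out a library gave -0.007 to 0.061 for RRP9, -0.000 to 0.063 for NPM1, and -0.059 to 0.040 for the change in the DKC1 to GAR1 ratio. Quantile normalization moved NPM1 from 0.031 to 0.13 (limma adjusted p = 0.0485), still not called. Testing against a 1.2-fold change left 3317 genes called, 1558 higher and 1759 lower, and 8 members, 8 higher and 0 lower. Leaving out a library left 4900 to 5638 genes and 17 to 20 members, 15 to 19 of them higher and 1 to 2 lower, with a member median of 0.17 to 0.19. These fits have fewer samples. Median centring moved the member median to 0.21. Members called lower numbered 1 without the mean-variance trend, 1 with median centring and 2 with DESeq2, and the cause was not tested. Over all genes the same fits called 2976, 3392 and 3401 lower, in that order, against 3759 in the reported fit. With a replicate block, 23 members were called, 22 higher and 1 lower, and 6898 genes, 3430 higher and 3468 lower. Whether the replicate numbers pair the samples is not stated. Genes near the floor of a few reads, such as CDH1, are limited by depth, and each member had at least 265 reads.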
